A study of Mus musculus with 16 samples.

Results

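Low-UMI barcodes are the droplet barcodes of a single-nucleus experiment that carry RNA, but too little of it to be called a nucleus. They were taken here as all barcodes with 21 to 200 unique molecular identifiers (UMIs, tags that count each captured RNA molecule once) in the gene rows of the 8 count matrices. They numbered 265674 of 3439603 barcodes (7.72%). Barcodes with more than 500 UMIs, taken as the set that holds the nuclei, numbered 33493 (0.974%). The members were chosen by the RNA UMIs of a barcode, so the numbers of barcodes and of UMIs per barcode are given as descriptions with no test. The kinds of genes detected and the ATAC counts (fragments of open chromatin) were not used to choose them.

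The study measured RNA and open chromatin from the same nuclei of the mouse dentate gyrus (DG), a hippocampal region made up mostly of granule cells (GCs). It compared wild-type (WT) mice, labelled VV, with mice homozygous for a valine-to-leucine change in *Nrg1* (V321L, labelled LL), a mutation in the transmembrane part of a neuregulin that signals to the nucleus. N = 4 mice/genotype were used, 2 females and 2 males each (F1, F2, M1 and M2), and each mouse was 1 library of the 10x Multiome kit made from frozen microdissected DG. The mutation is carried in the germline and is not limited to a cell type, and the age of the single mice is not given in the labels. Mice are separate animals, so the spread between them is biological as well as technical, while the barcodes of 1 mouse share a library and are not replicates. Whether the libraries of the genotypes were prepared on the same days is not given in the sources used here.

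A droplet without a nucleus still takes up the RNA that floats in the suspension. This RNA comes from cytoplasm and from the processes of cells that broke when the tissue was lysed, so it is known to be rich in mitochondrial transcripts and in short, spliced mRNAs such as those of ribosomal proteins. RNA inside a nucleus is known to be rich in introns of long genes and in non-coding RNAs such as *Malat1* that stay there.

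RNA libraries held 4326426 to 14624265 UMIs in WT and 15505354 to 23582057 UMIs in V321L mice. The low-UMI barcodes held 278336 to 858743 of these in WT mice and 2511287 to 5300883 in V321L mice. The gene counts of V321L mice therefore have the smaller counting error. WT M1 had the fewest UMIs in these barcodes, and values that rest on it are named below. The check of sex-linked genes matched the labelled sex in all 8 low-UMI sums. Any pair of libraries had 0.818% to 9.18% of the low-UMI barcode sequences of the smaller set in common, and 0.280% to 1.16% of the over-500 ones.

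The genotypes differed in how many low-UMI barcodes there were and in where their UMIs lay. WT F1, F2, M1 and M2 held 7784, 16614, 4766 and 5229 low-UMI barcodes, and the V321L mice held 66185, 53956, 48091 and 63049 in the same order. The V321L counts were thus all above the WT counts. For each over-500 barcode there were 3.11, 2.85, 1.97 and 1.64 low-UMI barcodes in WT and 11.6, 15.1, 13.6 and 9.37 in V321L mice. They carried 3.16% to 6.43% of all RNA UMIs of WT libraries and 16.2% to 24.0% of those of V321L libraries. Searched from 6 UMIs per barcode upwards, the densest bin was the first one in WT F1, M1 and M2, whose density was higher still at 4 to 5 UMIs, and lay at 7 to 8 UMIs in WT F2. It lay at 56 to 70 UMIs in V321L F1 and M2, at 28 to 34 in F2 and at 18 to 21 in M1. The same range of 21 to 200 UMIs thus took in the crowded part of the V321L distributions and only the upper flank of the WT ones. The median low-UMI barcode held 36, 37, 40 and 42 UMIs in WT and 69, 45, 38 and 71 in V321L mice. Above the range, the density reached a low point before rising again. That point lay at 282 to 354 UMIs in WT F1 and M1. In WT F2 it lay at 224 to 281 and in WT M2 at 447 to 561. It lay at 1778 to 2238 UMIs in V321L F1 and M2 and at 2239 to 2817 in V321L F2 and M1. Over-500 barcodes of V321L mice thus included those below that point and cannot be read as nuclei alone.

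**Figure D1:**
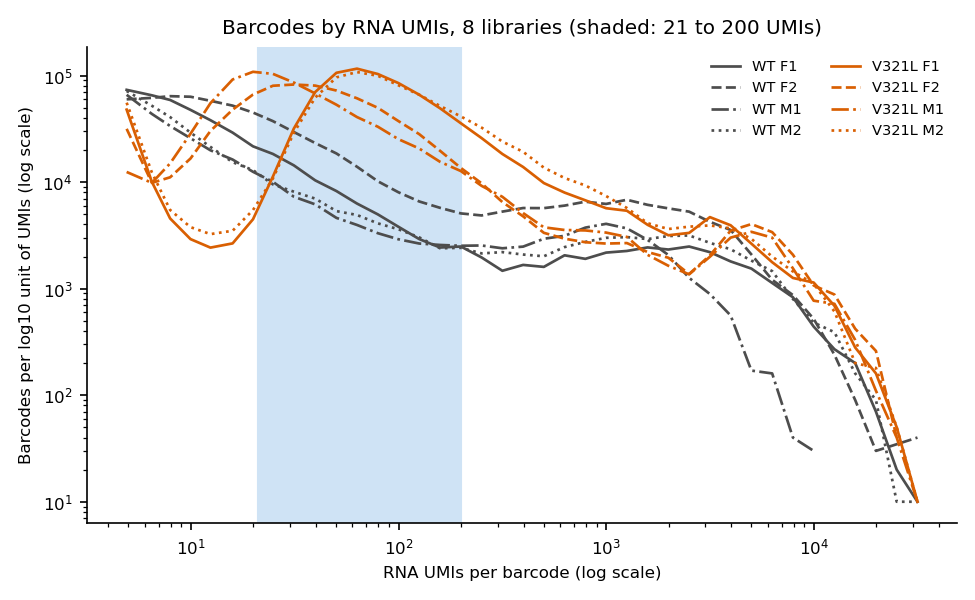
Number of barcodes per log10 unit of RNA UMIs (y axis, log scale) against RNA UMIs per barcode (x axis, log scale), with 1 line per mouse and the range of 21 to 200 UMIs shaded. The lines of V321L F1 and M2 have a crest at 56 to 70 UMIs inside the shading, while those of the 4 WT mice fall through it. Below 6 UMIs the lines of WT F1, M1 and M2 go on rising, so their densest bin at 6 is the edge of the range searched.

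The mitochondrial share changed little across either edge of the range in the female mice F1. In windows of 10 UMIs on either side of the lower edge and then of the upper edge, WT F1 drew 9.74%, 9.99%, 9.39% and 7.49% of its UMIs from mitochondrial genes, and V321L F1 12.8%, 12.5%, 15.3% and 14.9%. The windows held 8681, 2962, 70 and 54 barcodes in WT F1 and 831, 2276, 797 and 729 in V321L F1. In WT M1 that share changed across the range itself, from 10.4% just inside the lower edge to 2.66% just inside the upper one. Other groups did differ outside the range, since barcodes with 6 to 20 UMIs drew 1.69% of their UMIs from long neuronal genes in V321L F1, against 0.361% within it, and 18.5% from 45S-like genes in WT F1, against 11.7%.

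**Figure D2:**
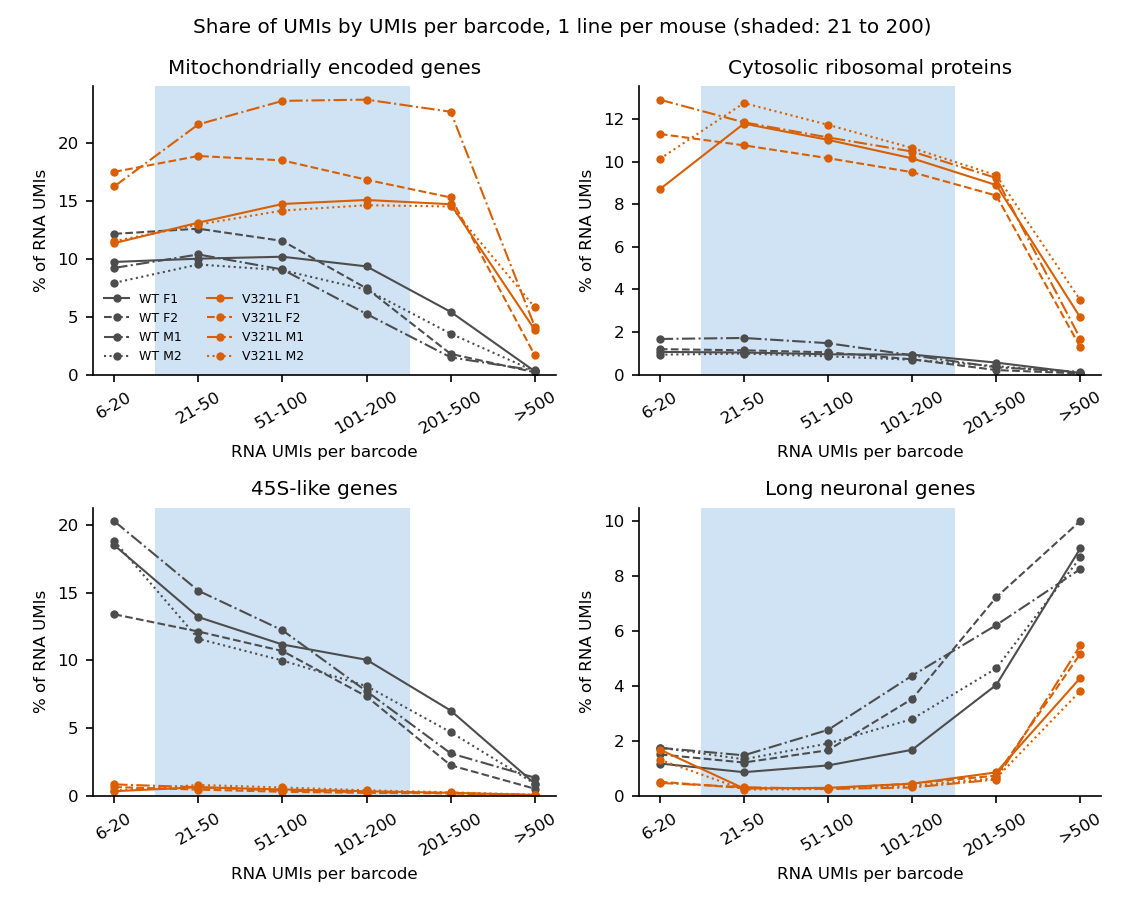
Percent of RNA UMIs (y axes) from 4 gene groups against RNA UMIs per barcode in 6 bins (x axes), with 1 line per mouse, WT in grey and V321L in orange, and the bins inside 21 to 200 UMIs shaded. Mitochondrial and ribosomal protein shares fell and long neuronal genes rose in barcodes over 500 UMIs in all 8 mice, and the lines of the genotypes stay apart for ribosomal protein and 45S-like genes.

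Not all low-UMI barcodes lay outside nuclei. A count of at least 500 ATAC fragments in peaks was reached by 75.8% of over-500 barcodes in WT and 52.9% in V321L mice on average. Among low-UMI barcodes it was reached by 1.44%, 2.56%, 7.68% and 2.87% in WT F1, F2, M1 and M2. In V321L mice it was reached by 0.0196%, 0.124%, 0.141% and 0.0111%. The WT barcodes of this kind drew only 0.905% to 1.28% of their UMIs from mitochondrial genes and 5.38% to 6.24% from 16 long neuronal genes. WT barcodes with under 20 ATAC counts drew 10.2% to 12.6% and 0.831% to 1.45% from the same groups. The barcodes with at least 500 ATAC counts held 15.3% of the low-UMI UMIs of WT M1, 3.36% to 6.26% of those of the other WT mice and at most 0.298% in V321L mice. The range is therefore called by its UMIs here and not as empty droplets, and each gene comparison was repeated with the barcodes that had under 20 ATAC counts, 68.7% to 83.4% of the low-UMI barcodes of WT and 96.5% to 97.7% of those of V321L mice.

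The comparison of low-UMI with over-500 barcodes of the same mouse asked which RNAs are enriched at low UMI counts, where free RNA is found. Mitochondrially encoded RNAs, ribosomal protein mRNAs, mRNAs of the respiratory chain, heat shock mRNAs and glial mRNAs took a larger share of the low-UMI barcodes. Long neuronal genes and non-coding RNAs known to stay in the nucleus took a smaller share. Each mouse was its own control in edgeR's quasi-likelihood test on summed counts, and a gene was called at a Benjamini-Hochberg adjusted p under 0.05 and an absolute log2 fold change of at least 1. Of 13702 genes tested, 54.8% were called, 4064 higher (29.7%) and 3450 lower (25.2%) in the low-UMI barcodes, with a median log2 fold change of 0.13 over all genes tested. Scaled by library size alone, without the trimmed mean of M-values (TMM), 2742 were higher and 4423 lower and that median was −0.27. The lists are described by their counts and medians, to be read against these. With only the barcodes under 20 ATAC counts, 4267 genes were higher and 3544 lower.

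All 13 mitochondrially encoded genes were higher, with a median log2 fold change of 3.91. These genes, carried on the mitochondrial chromosome and transcribed inside the organelle, encode subunits of the respiratory chain. They took 9.85%, 10.7%, 7.95% and 8.53% of the low-UMI UMIs of WT F1, F2, M1 and M2 and 0.278%, 0.194%, 0.349% and 0.279% of the over-500 UMIs. In V321L mice they took 14.7%, 18.1%, 22.8% and 14.2% against 3.86%, 1.65%, 4.13% and 5.80%. The low-UMI value was above the over-500 value in each of the 8 mice, by 11.3 percentage points on average (exact test of sign flips, two-sided, p = 0.00781, the smallest that 8 mice can give). *mt-Co1*, a subunit of cytochrome c oxidase, had the largest change with a log2 fold change of 4.02 (SE 0.32, edgeR adjusted p = 4.02e-08), and *mt-Cytb*, *mt-Co3*, *mt-Co2* and *mt-Nd4* followed at 3.98, 3.95, 3.94 and 3.93. The changes of the 13 genes lay between 3.73 and 4.02 and so differed little from each other.

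The cytosolic side of protein synthesis moved in the same direction. All 82 ribosomal protein genes tested were higher in the low-UMI barcodes, with a median log2 fold change of 3.28 and a range from 1.09 (*Rpl7l1*) to 3.79 (*Rps29*). Counts of these genes are uncertain, since their reads are shared with near-identical pseudogene copies. In WT mice they took 1.03% ± 0.207 of the UMIs of low-UMI and 0.0805% ± 0.0333 of those of over-500 barcodes (mean ± SD of 4 mice). In V321L mice they took 10.9% ± 0.540 and 2.28% ± 0.994. Of 89 nuclear genes of oxidative phosphorylation, 81 were higher and none lower, with a median of 2.60. *Cox8a*, a cytochrome c oxidase subunit made in the cytosol, was higher by 3.50 on the log2 scale (SE 0.19, edgeR adjusted p = 4.00e-09). The 8 that were not called included the complex I assembly factors *Ndufaf7*, *Ndufaf5* and *Ndufaf6* at −0.14, −0.09 and 0.09.

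**Figure D3:**
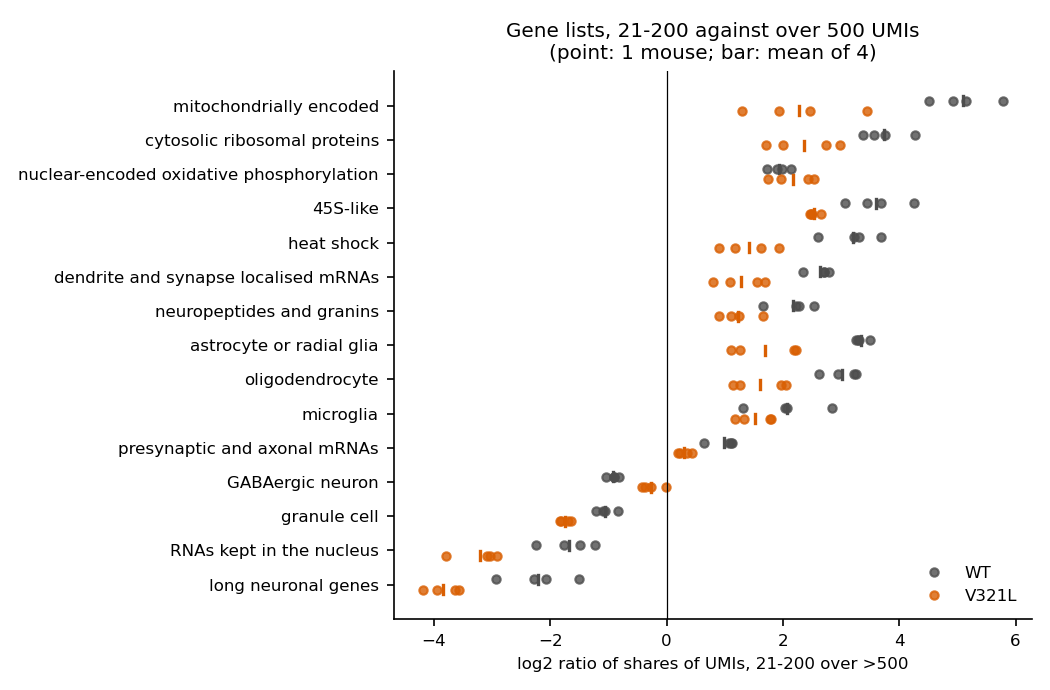
Log2 ratio of the share of RNA UMIs in low-UMI barcodes over that in over-500 barcodes (x axis) for each gene list (y axis), with 1 point per mouse and a bar at the mean of the 4 mice of a genotype. Mitochondrial, ribosomal protein and astrocyte lists lie above 0 in all 8 mice, and long neuronal genes, nuclear RNAs and granule cell markers lie below 0 in all 8.

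Ribosomal RNA-like genes were mostly higher in low-UMI barcodes too. *Gm42418* and *AY036118*, gene models that overlap the repeat for the ribosomal RNA precursor, were higher by 3.35 (SE 0.21) and 3.44 (SE 0.19) on the log2 scale, and *Lars2*, which encodes the mitochondrial leucyl-tRNA synthetase, was higher by 1.64. The other gene of this list, *Gm26917*, fell by 2.14. It is also on the list of RNAs kept in the nucleus, so the lists are not separate.

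The genes with the lowest values in low-UMI barcodes were long or non-coding. All 16 long neuronal genes were lower, with a median log2 fold change of −2.85. *Nrg3*, a neuregulin that binds ErbB4, fell by 3.43 (SE 0.23, edgeR adjusted p = 9.60e-09). It stood at 720, 1144, 2102 and 1353 CPM (the UMIs of a gene scaled to a common total per mouse) in the low-UMI barcodes of WT F1, F2, M1 and M2 and at 182, 162, 134 and 150 in V321L mice, against 7260 to 8449 and 3181 to 4509 in over-500 barcodes. Every low-UMI value was thus below every over-500 value. *Kcnip4*, a partner of A-type potassium channels, *Csmd1*, a membrane protein with complement control domains, and *Hs6st3*, a heparan sulfate sulfotransferase, fell by 3.43, 3.41 and 3.36. The other genes with the largest falls were gene models with no known product, led by *Gm45159*, *Gm10115* and *9530059O14Rik* at −3.81, −3.61 and −3.51. Of 13 RNAs kept in the nucleus, 12 were lower and 1 was higher, with a median of −2.39. *Malat1* fell by 2.14 (SE 0.20, edgeR adjusted p = 2.40e-07) and *Meg3* by 2.56, while *Peg13* was higher by 2.25.

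Over all genes, the change followed the length of the gene from start to end, introns included. Of 1339 genes under 5 kb, 81.0% were higher and 3.73% lower, with a median log2 fold change of 1.92. The median was 0.99 for genes of 5 to 20 kb, −0.14 for 20 to 100 kb and −1.20 for 100 to 500 kb. Of 221 genes over 500 kb, 200 were lower and 0 higher, with a median of −2.42. Spans were known for 94.9% of the genes tested.

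Messenger RNAs found in neuronal processes were higher too, though by less than mitochondrial ones. Of 20 mRNAs localised to dendrites and synapses, 14 were higher and none lower, with a median of 2.04. *Nrgn*, which encodes the postsynaptic protein neurogranin, rose by 2.39, and *Camk2a*, the alpha subunit of a calcium-dependent kinase, by 1.85. Of 16 presynaptic and axonal mRNAs, 14 were higher and 1 was lower, with a median of 1.61. *Snap25*, a part of the vesicle fusion machinery, rose by 1.48, while *Syt1*, its calcium sensor, fell by 1.08. Of 19 neuropeptide and granin genes, 16 were higher and none lower (median 2.06), among them *Pcsk1n* at 2.51 and *Cck* at 2.30. All 11 heat shock genes were higher (median 2.43), as were 8 of 11 immediate early genes (median 1.75). *Mt1*, a metallothionein that binds zinc and copper, had the largest change of a nuclear gene, with 3.94 (SE 0.22, edgeR adjusted p = 4.17e-09).

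Most markers of glia were higher in low-UMI barcodes, while markers of GCs went both ways under TMM scaling. In sums over many barcodes, fewer cells of a type and less RNA per cell cannot be told apart. Of 13 astrocyte or radial glia markers, 12 were higher (median 2.21), led by *Aldoc*, a glycolytic aldolase, at 3.82. Of 13 oligodendrocyte markers, 12 were higher (median 2.05), with *Mobp* and *Mbp*, which encode myelin proteins, at 3.47 and 3.19. Of 12 microglia markers, 9 were higher (median 2.37), with the complement genes *C1qa* and *C1qb* at 3.19 and 3.03. No marker of these 3 lists was lower. Of 9 vascular markers, 7 were higher and none lower (median 1.78). Of 12 GC markers, 3 were higher and 4 lower, with a median of 0.37. Without TMM, none of these 12 was higher and 4 were lower, with a median of 0.13. *Prox1*, the transcription factor that marks GCs, was not called at 0.08 (SE 0.13), and *Rfx3*, a transcription factor, fell by 2.55. The summed share of GC markers was lower in low-UMI than in over-500 barcodes of all 8 mice, at 0.300% ± 0.0195 against 0.620% ± 0.0307 in WT mice and, with mean ± SD of 4 mice as before, 0.110% ± 0.00865 against 0.370% ± 0.0513 in the mutants. GABAergic markers were split, with 10 of 12 higher and *Adarb2*, a long gene, lower by 3.24, although their summed share was lower in low-UMI barcodes of every mouse. Markers of other excitatory neurons were higher in 6 and lower in 1 of 12, those of OPCs in 5 and 2 of 10, those of neuroblasts in 3 and 1 of 5 and those of choroid plexus in 2 and 0 of 4. Without TMM, 6 GABAergic, 5 vascular, 4 other excitatory, 2 OPC, 2 neuroblast and 1 choroid plexus markers were higher. Lower were 1 GABAergic, 2 other excitatory, 2 OPC, 1 neuroblast and 1 choroid plexus markers. The astrocyte, oligodendrocyte and microglia counts stayed at 12, 12 and 9 higher. None of 4 Cajal-Retzius markers was called (1 was lower without TMM), and the red blood cell gene tested, *Alas2*, fell by 1.97. For neuroblast markers the log2 ratio of low-UMI to over-500 shares was 1.17 to 2.00 in WT and −0.49 to −0.25 in V321L mice. For Cajal-Retzius markers it was 0.16 to 0.80 in WT and −1.26 to −0.86 in V321L mice. The low-UMI UMIs of the Cajal-Retzius list were mostly *Reln* (149 in WT and 337 in V321L mice) and *Ndnf* (60 and 189), with 2 and 24 for *Trp73*. Among neuroblast markers *Sox11* held 358 and 488 UMIs and *Neurod1* 135 and 640.

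Some of these markers lay together in the same barcodes. A clumping index compares how often UMIs of a list share a barcode with what 1 common pool of RNA would give, which is 1. The index depends on which barcodes are taken. Its mean over the 8 mice was 1.12 for ribosomal protein and 1.26 for mitochondrial genes, 1.83 for GC and 1.79 for astrocyte markers, 4.84 for oligodendrocyte and 10.5 for microglia markers and 5.03 for long neuronal genes. In barcodes taken by their rank in UMIs, a choice added after seeing the data, it was 4.04 for GC, 3.82 for astrocyte, 8.55 for oligodendrocyte and 10.01 for microglia markers and 2.65 for long neuronal genes. Microglia markers ranged from 2.77 in WT M1 to 24.2 in V321L M1. Among the lists given here, ribosomal protein values lay closest to a common pool, at 0.974 to 1.02 in V321L mice and up to 1.39 in WT mice. Oxidative phosphorylation genes, not among them, lay at 0.923 to 0.964 in V321L and 0.962 to 1.18 in WT mice. In V321L mice 97.4% to 99.7% of low-UMI barcodes held a ribosomal protein UMI, compared with 33.8% to 43.8% in WT mice.

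The comparison between genotypes asked whether the RNA of low-UMI barcodes differed between V321L and WT mice. It differed in most genes. In V321L mice, mRNAs of ribosomal proteins and of the respiratory chain made up about 10 times the share they had in WT mice, and most microglia and oligodendrocyte markers and neuropeptide mRNAs were higher. The summed mitochondrial share was higher too, although its genes went both ways. Ribosomal RNA-like genes and long neuronal genes were lower. By edgeR's quasi-likelihood test on 1 sum per mouse, 73.2% of 10541 genes were called at an adjusted p under 0.05, 4119 higher (39.1%) and 3598 lower (34.1%) in V321L mice. In 65.4% of the genes the CPM of the genotypes did not overlap, with V321L mice above in 25.9% and below in 39.4%. TMM scaling moved the genotypes apart, with factors of 1.24 to 1.32 in WT and 0.757 to 0.817 in V321L mice. Without it, 2989 genes were higher and 4827 lower, and the median log2 fold change over all genes was −0.41 in place of 0.12. Folds near these medians thus depend on the scaling. With only the barcodes under 20 ATAC counts, 3677 genes were higher and 3300 lower, and all 82 ribosomal protein genes stayed higher (median 4.06) and all 16 long neuronal genes lower (median −1.70).

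Over-500 barcodes differed between genotypes in the same direction for the shares of several groups, with no overlap between the mice. These were ribosomal protein, 45S-like, long neuronal, mitochondrial, oxidative phosphorylation, oligodendrocyte, microglia and neuropeptide genes. In low-UMI barcodes the microglia share did overlap, with WT M1 at 0.172% above the V321L mice (0.0962% to 0.151%). Oligodendrocyte markers took 6.98-fold and neuropeptide genes 6.11-fold more of the over-500 UMIs in V321L mice, against 2.68-fold and 3.20-fold more of the low-UMI ones. Ribosomal protein genes took 10.5-fold more of the UMIs of low-UMI barcodes and 28.4-fold more of those of over-500 barcodes in V321L than in WT mice. RNAs kept in the nucleus differed in over-500 barcodes, at 1.35% to 1.56% in WT and 3.31% to 5.16% in V321L mice. Their mean share was 3.12-fold higher in V321L mice there, against 1.06-fold in low-UMI barcodes. Low-UMI barcodes also held a larger share of the RNA in V321L libraries. The RNA UMIs per library, the number of low-UMI barcodes and the shape of the UMI distribution moved with genotype too. Median UMIs per barcode overlapped, at 36 to 42 in WT and 38 to 71 in V321L low-UMI barcodes. In over-500 barcodes they were 1094 to 1913 in WT and 1111 to 2756.5 in V321L mice. The over-500 set of V321L mice also held barcodes below the second rise in density. The part of these features in the gene differences was not tested. With 1 library per mouse and no record of preparation days, the genotype and the preparation cannot be told apart.

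Ribosomal protein and respiratory chain mRNAs changed as whole groups. All 82 ribosomal protein genes were higher in the mutants, at a median log2 fold change of 4.26, lowest for *Rpl4* at 1.39. *Rplp1*, a protein of the ribosomal stalk, stood at 214, 207, 399 and 157 CPM in WT F1, F2, M1 and M2 and at 4539, 4249, 4829 and 4529 CPM in V321L mice. The lowest V321L value was far above the highest WT value, with a log2 fold change of 4.78 (SE 0.27, edgeR adjusted p = 1.51e-13). All 89 nuclear genes of oxidative phosphorylation were higher (median 4.31), or 85 of 89 without TMM. *Cox8a* stood at 304, 323, 449 and 210 CPM in WT and 3301, 2955, 3098 and 3348 CPM in V321L mice. *Uqcr11*, a small subunit of complex III, stood at 27.7, 18.6, 21.6 and 19.7 CPM in WT and at 1048, 724, 933 and 930 CPM in V321L mice, a log2 fold change of 5.93 (SE 0.25, edgeR adjusted p = 1.07e-14). At the lower end, *Ndufs1*, a core subunit of complex I, differed by only 0.40 and lay at a mean of 118 CPM in WT and 103 in V321L mice, so that its direction came from the scaling.

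**Figure D4:**
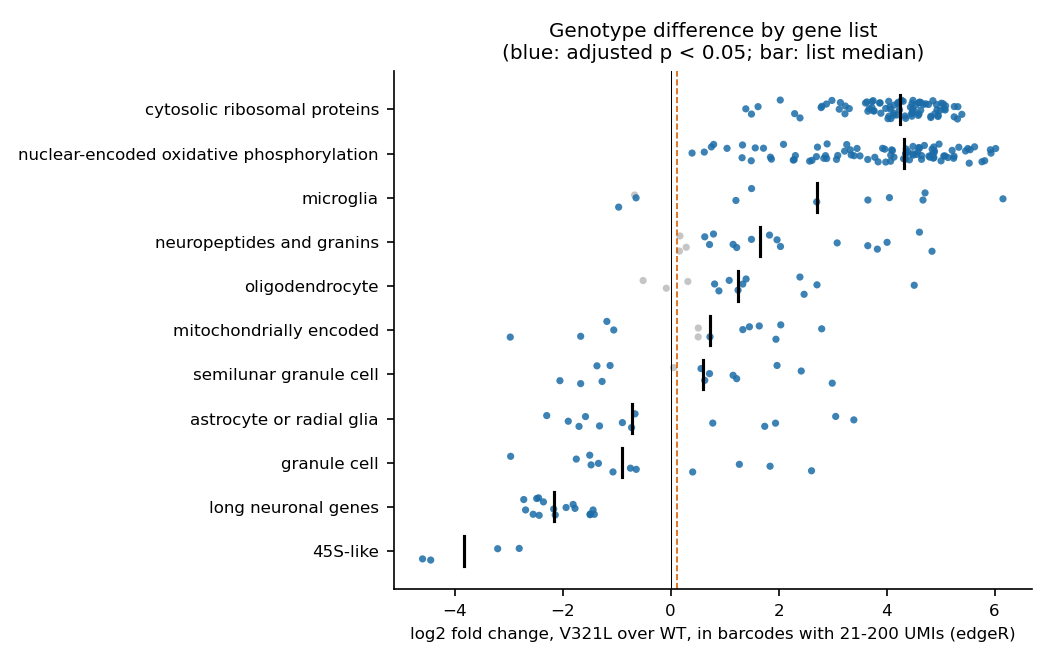
Log2 fold change in low-UMI barcodes, V321L over WT (x axis), of each tested member of each gene list (y axis), blue where the edgeR adjusted p was under 0.05 and grey where not, with a black bar at the list's median and a dashed line at the median of all genes tested (0.12). Ribosomal protein and oxidative phosphorylation genes lie to the right of the line as whole groups and 45S-like and long neuronal genes to the left, while mitochondrial and astrocyte genes lie on both sides.

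Mitochondrially encoded RNA was more abundant in V321L low-UMI barcodes, but not gene by gene. Its share averaged 9.26% ± 1.25 in WT and, again as mean ± SD of 4 mice, 17.5% ± 3.99 in V321L mice, a difference of 8.19 percentage points (exact permutation test, two-sided, p = 0.0286, the smallest that 4 against 4 can give). The lowest V321L mouse, M2 at 14.2%, was above the highest WT mouse, F2 at 10.7%. Of the 13 genes, 7 were higher, 4 lower and 2 not called, or 6, 4 and 3 without TMM. *mt-Co3*, a core subunit of cytochrome c oxidase, stood at 8160, 9581, 8421 and 7084 CPM in WT and at 33971, 40790, 51364 and 31896 CPM in V321L mice, a log2 fold change of 2.80 (SE 0.28, edgeR adjusted p = 3.51e-09). *mt-Nd1*, *mt-Co2*, *mt-Cytb*, *mt-Atp6*, *mt-Nd2* and *mt-Nd3* were higher by 2.04, 1.95, 1.64, 1.46, 1.34 and 0.73. *mt-Nd6*, the one protein gene read from the other strand of the mitochondrial chromosome, went the other way. It stood at 1359, 1151, 772 and 943 CPM in WT and at 68.7, 92.2, 131 and 79.9 CPM in V321L mice, so that every V321L value was below every WT value, with a log2 fold change of −2.97 (SE 0.23, edgeR adjusted p = 3.61e-11).

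The lower mitochondrial genes also included 2 that share a messenger with a neighbour. *mt-Atp8* fell by 1.67 while *mt-Atp6*, encoded on the same transcript, was higher, and *mt-Nd4l* fell by 1.18 while *mt-Nd4* was not called at 0.51 (edgeR adjusted p = 0.0643). *mt-Nd5* fell by 1.05, and *mt-Co1*, at 11745 to 15075 CPM in WT and 11204 to 16030 CPM in V321L mice, was not called either (0.51, edgeR adjusted p = 0.0513). Levels are per UMI and not per length, so they are compared here between mice and not between genes.

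Ribosomal RNA-like genes were lower in V321L mice. *Gm42418* alone took 89924, 81726, 92194 and 80707 CPM in WT low-UMI barcodes and 2555, 1711, 2873 and 2593 CPM in V321L ones, a log2 fold change of −4.60 (SE 0.30, edgeR adjusted p = 2.58e-12). The 4 genes of the group were all lower, with *Lars2* at −4.44, *Gm26917* at −3.20 and *AY036118* at −2.80. Together they took 10.8% ± 0.889 of the low-UMI UMIs in WT and 0.451% ± 0.0873 in V321L mice (mean ± SD of 4). WT mice were 23.9-fold higher there and 11.9-fold higher in over-500 barcodes.

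Long neuronal genes were lower as a group, in all 16 members, with a median of −2.15. *Lsamp*, an adhesion molecule of limbic neurons, stood at 1399, 3208, 4448 and 2977 CPM in WT and at 433, 427, 311 and 366 CPM in V321L mice. WT F1 was lowest and WT M1 highest among WT mice, and both were above all V321L mice. The 16 genes together took 2.05% ± 0.702 of the UMIs in WT and 0.326% ± 0.0286 in V321L mice (mean ± SD of 4). WT mice were 6.29-fold higher there and 1.92-fold higher in over-500 barcodes. The genotype difference also followed gene span. Of 1098 genes under 5 kb, 86.3% were higher and 5.28% lower in V321L mice (median 2.77), while of 206 genes over 500 kb, 202 were lower and 0 higher (median −1.98). Genes under 5 kb took 6.01% to 7.39% of the low-UMI UMIs of WT mice that fell in genes of known span and 30.2% to 32.0% of those of V321L mice. Of 12 RNAs kept in the nucleus, 2 were higher and 5 lower, or 1 and 7 without TMM. In barcodes taken by their rank in UMIs, 0 of 11 were higher and 8 were lower. *Malat1* overlapped between the genotypes, at 2237 to 5227 CPM in WT and 3266 to 5610 CPM in V321L mice (log2 fold change 0.86, edgeR adjusted p = 0.00291). In over-500 barcodes it did not overlap, at 8662 to 10972 CPM in WT and 29122 to 44515 CPM in V321L mice.

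The 10 genes with the largest rises were named by rank and include some with hardly any UMIs in WT mice. *Dctpp1*, a dCTP pyrophosphatase, had 0 UMIs in the 4 WT sums and 48.5, 44.2, 39.0 and 48.3 CPM in V321L F1, F2, M1 and M2, at least 28.3-fold higher when set against 3 UMIs over the WT group. *Epb41l4aos*, an antisense RNA, had 1 UMI in WT mice, which gave a ratio of 78.7 (95% exact counting interval 14.1 to 3113). *Gm10076* and *Rpp21*, a subunit of ribonuclease P, had 3 UMIs each in WT mice and ratios of 73.6 (25.1 to 357) and 61.2 (20.9 to 297). These intervals cover counting error only. *Tyrobp*, the adaptor of microglial receptors, *Mrpl23*, a protein of the mitochondrial ribosome, *Fmc1* and *Ndufaf8*, assembly factors of complexes V and I, and *Uqcr10* of complex III rose by 6.15, 6.14, 6.04, 6.02 and 5.92 on the log2 scale. In over-500 barcodes the same genes rose by 6.11, 4.28, 3.59, 5.39 and 4.54.

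The largest falls included a chromatin regulator and non-coding gene models. *Jarid2*, a cofactor of the Polycomb repressive complex, stood at 1001, 793, 1613 and 740 CPM in WT and at 24.0, 22.4, 27.1 and 20.8 CPM in V321L mice, a log2 fold change of −4.92 (SE 0.25, edgeR adjusted p = 3.23e-14). In over-500 barcodes *Jarid2* fell by 1.71. *Filip1l*, a partner of filamin, fell by 5.39 (171, 224, 826 and 347 CPM in WT against 5.39 to 6.60 CPM in V321L mice), and *Tmtc2*, an enzyme of the endoplasmic reticulum, by 4.72, against 2.80 and 0.77 in over-500 barcodes. The others were non-coding or little-known genes, namely *D130009I18Rik* (−7.85), *Gm48099* (−6.10), *Gm26759* (−5.39), *Cdr1* (−5.32), *Ccdc152* (−5.16), *B020010K11Rik* (−5.09) and *Gm20721* (−4.65). *D130009I18Rik* was at 0 in V321L F2, M1 and M2, so its fold is not a bound, and WT M1 held by far the highest value of *Gm48099* (262 CPM against 22.9 to 55.4).

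Oligodendrocyte and microglia markers were mostly higher in V321L mice. Of 13 oligodendrocyte markers, 10 were higher and none lower (median 1.25), or 7 and 2 without TMM. *Mbp* stood at 544, 630, 478 and 576 CPM in WT and at 1995, 3896, 2255 and 1945 CPM in V321L mice (log2 fold change 2.71), and *Ptgds*, a prostaglandin synthase, was higher by 4.51. Of 11 microglia markers, 8 were higher and 2 lower (median 2.71). *C1qb* stood at 12.6, 12.8, 18.0 and 3.28 CPM in WT and at 164, 214, 265 and 204 CPM in V321L mice (log2 fold change 4.67).

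Astrocyte markers went both ways, with 5 of 13 higher and 8 lower (median −0.72). *Cst3*, a secreted protease inhibitor, stood at 956, 984, 1142 and 1038 CPM in WT and at 6334, 8097, 7273 and 7944 CPM in V321L mice (log2 fold change 3.39, SE 0.22). *Slc1a2*, the main glutamate transporter of astrocytes, stood at 4426, 5165, 2375 and 3861 CPM in WT and at 773, 1132, 987 and 758 CPM in V321L mice (−1.58, SE 0.23). The values of the genotypes did not overlap for either gene, in opposite directions. Astrocyte markers together took 0.963% ± 0.188 of the UMIs in WT and 1.12% ± 0.129 in V321L mice (mean ± SD of 4), with overlap.

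Neuronal markers were likewise mixed. Of 12 GC markers, 4 were higher and 8 lower (median −0.91). *Prox1* stood at 438, 354, 244 and 311 CPM in WT and at 68.1, 62.1, 81.2 and 67.2 CPM in V321L mice (−1.75, SE 0.18), and *Rfx3* fell by 2.96. *C1ql2*, a synaptic organiser secreted by GCs, was higher by 2.61. The summed share of GC markers was 2.74-fold higher in WT than in V321L low-UMI barcodes and 1.68-fold higher in over-500 ones. Of 12 GABAergic markers, 6 were higher and 5 lower, with the peptide gene *Sst* higher by 4.61 and *Adarb2* lower by 2.38. Of 18 neuropeptide and granin genes, 15 were higher and none lower (median 1.66), or 11 without TMM, and *Cck* stood at 83.0, 74.5, 172 and 52.4 CPM in WT and 1898, 1748, 1559 and 2092 CPM in V321L mice. Dendritic mRNAs were higher in 12 and lower in 5 of 20 (median 0.87), where *Nrgn* rose by 2.60 and *Camk2a* fell by 1.34. Presynaptic mRNAs were higher in 12 and lower in 3 of 16 (0.93), and heat shock genes in 7 and 2 of 11 (0.70). Immediate early genes were higher in 5 and lower in 1 of 9 (0.85). Markers of other excitatory neurons were higher in 6 and lower in 1 of 10 (1.25), and vascular markers in 4 and 1 of 7 (1.15). Without TMM, 9 dendritic mRNAs were higher and 7 lower, and 8 presynaptic ones were higher and 4 lower. Heat shock and immediate early genes each had 4 higher and 2 lower, other excitatory markers 4 and 1 and vascular markers 3 and 2. The presynaptic share averaged 0.978% in V321L and 1.24% in WT mice, and the immediate early one 0.0388% and 0.0449%. OPC markers were 4 higher and 4 lower of 8. Both Cajal-Retzius markers tested (*Reln* and *Ndnf*), 2 of 4 neuroblast and 2 of 3 choroid plexus markers were lower with none higher. No red blood cell gene passed the filter, and the globin gene *Hbb-bs* was at 0 in the 4 WT mice and at 3.84 to 122 CPM in V321L mice, highest in F1 and lowest in F2.

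A list of 14 genes, only some of those that the study links to semilunar granule cells (SGCs), a GC subtype with wide dendrites, was measured in the low-UMI barcodes. The study chose its genes on these libraries, so its direction is not independent evidence. In low-UMI barcodes 8 were higher, 5 lower and 1 not called in V321L mice, with a median of 0.60 against 0.12 for all genes. *Penk*, the precursor of the enkephalins, stood at 22.6, 10.5, 18.0 and 19.7 CPM in WT and at 26.0, 40.0, 19.5 and 20.02 CPM in V321L mice. The groups overlapped, since V321L M1 was below WT F1 and M2, and the log2 fold change of 1.22 (SE 0.33, edgeR adjusted p = 0.00188) became 0.69 and was no longer called without TMM. *Scg2*, *Chgb* and *Pcdh8* were called at 0.63, 0.72 and 0.56 and likewise lost their calls without TMM. *Nptx2*, *Mdh1*, *Grp* and *Vgf* were higher by 2.99, 2.42, 1.97 and 1.16.

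The lower members of the SGC list included receptors and *Nrg1*. *Sorcs3*, a sorting receptor, stood at 55.4, 50.1, 57.5 and 72.1 CPM in WT and at 16.98, 25.0, 9.96 and 13.7 CPM in V321L mice (−1.27, SE 0.24, edgeR adjusted p = 5.89e-05). *Nrg1* itself stood at 83.0, 120, 190 and 85.2 CPM and at 27.4, 17.3, 22.7 and 11.7 CPM (−2.05). No V321L value of either gene reached the WT range, which was also so for 39.4% of all genes tested between genotypes. *Grm8*, a metabotropic glutamate receptor, *Itgav*, an integrin, and *Kcnj2*, a potassium channel, fell by 1.67, 1.37 and 1.12, and *Cit* was not called at 0.05 (SE 0.35). Between low-UMI and over-500 barcodes, 7 of the 14 were higher in the low-UMI ones, *Mdh1* (2.20), *Vgf* (2.18), *Chgb* (1.98), *Grp* (1.88), *Pcdh8* (1.45), *Scg2* (1.43) and *Penk* (1.28), and 3 were lower, *Nrg1* (−3.20), *Grm8* (−2.73) and *Sorcs3* (−1.64).

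A further test asked whether the low-UMI against over-500 difference was itself unequal between the genotypes. Of 15069 genes, 24.7% were called, with the ratio higher in V321L mice for 2667 (17.7%) and lower for 1057 (7.01%), by edgeR's quasi-likelihood interaction test, at an adjusted p under 0.05. This split rests on the scaling, with 1440 and 1791 genes by DESeq2 and 296 and 8718 without TMM, and the median over all genes was 0.17, −0.16 and −1.28 in the 3 fits. Directions of lists are therefore given against that median. Without WT F2 the lower count was 625. All 13 mitochondrial genes had a lower ratio in V321L mice, with a median 1.54 below that of all genes, and did so in all 3 fits. Their log2 ratio of low-UMI to over-500 shares was 5.15, 5.78, 4.51 and 4.93 in WT and 1.93, 3.45, 2.47 and 1.29 in V321L mice. These ratios did not overlap, and neither did those of ribosomal protein genes (3.37 to 4.28 in WT and 1.70 to 2.98 in V321L mice) or of long neuronal genes (−2.93 to −1.51 and −4.19 to −3.57). None of the 13 mitochondrial genes was called when over-500 barcodes were replaced by nuclei within the study's limits, which include a ceiling on the mitochondrial share. Of 92 oxidative phosphorylation genes, 54 had a higher ratio and 1 a lower one (median 0.87 above that of all genes), but 16 and 28 without TMM, and their summed ratios overlapped between genotypes. Of 13 astrocyte markers 10 had a lower ratio (1.23 below). Of 82 ribosomal protein genes, 10 were higher and 2 lower, against 6 and 20 with only the barcodes under 20 ATAC counts, 5 and 10 by DESeq2 and 1 and 65 without TMM. None of the 16 long neuronal genes was called, but 2 were lower by DESeq2 and all 16 without TMM. Among called genes at 20 CPM or more, the largest value was 4.77 for *Nbdy*, a regulator of mRNA decapping bodies. *Mrps28*, of the mitochondrial ribosome, had 4.28, and *Spink8*, *Sem1* and *Snhg6* had 3.92, 3.80 and 3.80. *Mrps28* stood at 34.4 to 39.3 CPM in WT and 27.4 to 37.6 CPM in V321L over-500 barcodes, but at 5.03 to 21.6 and 51.8 to 82.4 CPM in low-UMI ones. The lowest values of called genes at that level were −3.41 for *Tmtc2*, −3.32 for *D130009I18Rik*, −2.91 for *4930419G24Rik*, −2.86 for *Prr5l* and −2.74 for *Gm16168*.

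Low-UMI barcodes carried little open chromatin, and within 21 to 200 UMIs the V321L mice had the least. The median ATAC count in peaks was 9, 6, 11 and 6 per low-UMI barcode of WT F1, F2, M1 and M2 and 1, 2, 4 and 0 in V321L mice. Every WT mouse was above every V321L mouse, by a mean of 6.25 counts (exact permutation test, two-sided, p = 0.0286, the smallest possible). Without WT M1 the difference was −5.25 and no longer passed (exact p = 0.0571), nor did it in barcodes taken by their rank in UMIs (−1.5, exact p = 0.257). Those ranked barcodes lay mostly below 21 UMIs in WT mice and mostly within the range in V321L mice. They therefore do not repeat the comparison within 21 to 200 UMIs. Over-500 barcodes had a mean of the 4 medians of 2865 ± 1431 in WT and 2146 ± 2123 (SD) in V321L mice, and lay above the low-UMI barcodes in each mouse (exact test of sign flips, p = 0.00781). ATAC libraries held 11953485 to 18352665 counts in WT and 6580616 to 25552769 in V321L mice. Within V321L mice the medians followed this depth, and in WT the deepest library, M1, had the highest median. WT M2, with 13648769 counts, had a median of 6, and WT F1, with 12438656, had 9. V321L M1 and F2, the deepest of all libraries (25552769 and 18892690), had medians of 4 and 2, below every WT mouse. The part of depth was not tested. The share of low-UMI barcodes with at least 500 ATAC counts averaged 3.64% ± 2.76 (SD) in WT and 0.0741% ± 0.0682 in the mutants (exact permutation test, p = 0.0286), compared with 75.8% ± 7.36 and 52.9% ± 13.1 of over-500 barcodes. That genotype difference, −3.56 percentage points, was −2.22 without WT M1, gave an exact p of 0.0571 without any 1 of the V321L mice, and was 0.0213, turned in sign, in the ranked barcodes (exact p = 0.171).

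**Figure D5:**
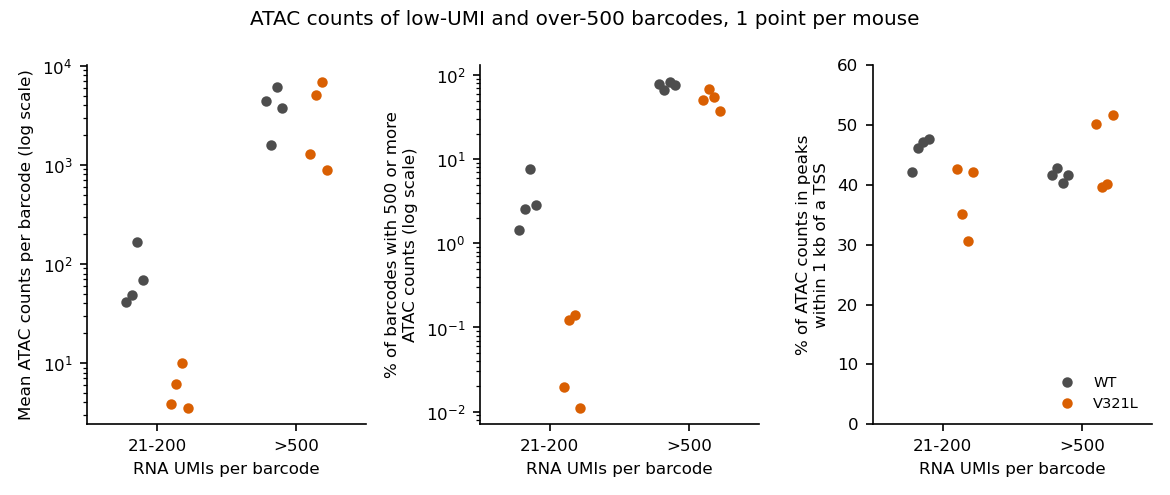
Mean ATAC counts per barcode (left, log scale), percent of barcodes with at least 500 ATAC counts (middle, log scale) and percent of ATAC counts in peaks within 1 kb of a transcription start site (right), for low-UMI and over-500 barcodes, with 1 point per mouse. WT mice lie above V321L mice in both left panels for low-UMI barcodes, and on the right V321L F2 and M1 lie lowest, at 35.2% and 30.5%.

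Whether the promoter share of those counts differed depended on the barcodes and regions taken. Peaks within 1000 bases of a transcription start site held 42.1%, 46.2%, 47.2% and 47.6% of the ATAC counts of low-UMI barcodes in WT F1, F2, M1 and M2 and 42.6%, 35.2%, 30.5% and 42.2% in V321L mice. The groups overlapped, and the difference of −8.14 percentage points gave p = 0.0857 in the exact permutation test. Counts were pooled over barcodes, so barcodes with many counts weighed more. Those with at least 500 were 1.44% to 7.68% of low-UMI barcodes in WT and 0.0111% to 0.141% in V321L mice. Their weight in these shares was not measured. Peaks were called per library, and over the 25604 regions with a peak in all 8 libraries the difference was −8.67 points (exact p = 0.0286). It also passed at 51 to 200 UMIs (−9.92) and in a range scaled to each library (−7.50), while with barcodes under 20 ATAC counts it turned in sign without passing (4.10 points, exact p = 0.4). Against over-500 barcodes of the same mouse the share was lower in 4 mice and higher in 4 (mean −1.79 points, exact test of sign flips, p = 0.453). That difference passed at 21 to 100 UMIs (−4.48), under 100 and under 20 ATAC counts (−10.5 and −11.2) and in the ranked barcodes (−8.54), where low-UMI barcodes had the lower share on average.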

How the data were processed

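Nuclei of microdissected, frozen DG were processed with the 10x Multiome kit, 1 library per mouse (8 libraries, 4 mice/genotype). The deposited values are raw UMI counts per gene and ATAC fragment counts per peak for all barcodes, made by the authors with cellranger-arc 2.0.2 per the file headers, on mm10 per the submitters' processing notes, with peaks called per library. The matrices hold 32285 genes. They were not filtered or normalised before deposition, and no UMI correction for free RNA was applied here. Values were summed over the low-UMI barcodes of each mouse. The members and gene lists were chosen with earlier results of these data known.

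Sums were tested with edgeR 4.0.16 in R 4.3.3 (TMM, filterByExpr, quasi-likelihood, Benjamini-Hochberg adjustment), with mouse as a block between barcode sets and without a block between genotypes. Differences between barcode sets were called at an adjusted p under 0.05 and an absolute log2 fold change of at least 1, all others at an adjusted p under 0.05. Single values per mouse were tested with exact permutation tests (Python 3.11.15, scipy 1.17.1, numpy 2.4.6, pandas 2.3.3, matplotlib 3.10.9). Named genes were, at 20 CPM or more, the 12 largest changes each way in all 8 mice between barcode sets, the 10 each way with no overlap between genotypes and the 5 each way in the interaction. From each list the 2 to 4 members of highest level served as examples, all 14 listed SGC genes were given, and other genes were named after their values were seen. Gene spans came from RefSeq (GRCm38.p6). Promoter peaks lay within 1000 bases of a start site.

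Alternatives were other UMI and ATAC limits, DESeq2 1.42.0, library sizes, no filter, sex, the replicate number, thinning, each mouse left out, the study's nuclei limits and, added after seeing the data, the barcodes ranked 20001 to 60000 by UMIs. Replicate numbers were not taken as pairs, since same-numbered mice did not deviate together (correlations −0.0032 to 0.081). In simulated counts, 47% of genes changed by 1 on the log2 scale and 100% of those changed by 2 were recovered between barcode sets (10541 genes). Between genotypes 59.6% and 98.9% were recovered (10298 genes), and in the interaction 40% and 93%. The simulation changed few genes, evenly up and down, on a shared profile. It therefore cannot show recovery where most genes differ or where scaling shifts the folds. Intervals cover counting error only. Results of some genes are not reported here.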

Additional observations from a re-analysis of the deposited data

Results flagged for a closer look

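Among 122 sets of 4 mice, 13 held 1 mouse far from the other 3. The rule flags about 1 in 20 sets of independent, normally spread values. These sets share libraries and include genes named for their large changes, so the count cannot be set against that rate. In WT mice, M1 had the highest microglia share (0.172% of low-UMI UMIs) and OPC share (0.0313%), as well as 208 CPM of *D130009I18Rik* and 262 CPM of *Gm48099*. WT M2 stood apart for the choroid plexus share (0.0635%) and WT F2 for *Epb41l4aos*, at 1.16 CPM (1 UMI) against 0 in the others. In V321L mice, F2 had the highest GABAergic share (0.147%) and 88.7 CPM of *Vgf*, and M1 the lowest vascular share (0.00577%). V321L F1 was highest for *Ndufaf8* (114 CPM), *Tmtc2* (8.87 CPM) and *D130009I18Rik* (0.755 CPM, with 0 in the others), and V321L M2 for *Gm10076* (161 CPM).

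The ratio of low-UMI to over-500 barcodes differed between genotypes by edgeR's interaction test for 2667 genes that were higher in V321L mice and 1057 that were lower. Among those at 20 CPM or more, the largest on the log2 scale were *Nbdy* (4.77), *Mrps28* (4.28), *Spink8* (3.92), *Sem1* (3.80) and *Snhg6* (3.80). The lowest at that level were *Tmtc2* (−3.41), *D130009I18Rik* (−3.32), *4930419G24Rik* (−2.91), *Prr5l* (−2.86) and *Gm16168* (−2.74).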

How the results depend on the processing

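The genes named by rank, and those of the SGC list followed between genotypes, kept their direction under the alternatives run. Other named genes are not covered by this, and the direction of *Ndufs1* between genotypes came from the scaling. Of the repeated tests of the followed genes, 18 between genotypes lost the call against 637 that kept it. In the interaction 4 lost it against 176, while all 456 between barcode sets kept it. The causes of the changes below were not tested. With the replicate block the genotype difference in mitochondrial share was 8.19 points at an exact p of 0.125, the smallest for 4 pairs, and the gene comparison between genotypes gave 4005 higher and 3430 lower. Thinned to the smallest sum (278336 UMIs, 4917 genes tested), it gave 1857 and 1873. The interaction gave 1440 higher and 1791 lower by DESeq2 and 296 and 8718 with library sizes. Barcodes taken by their rank in UMIs, a choice made after seeing the data, lay mostly below 21 UMIs in WT mice. With them the interaction gave 1642 higher. There the genotype difference was −1.5 in the median ATAC count (exact p = 0.257), and 0.0213 percentage points, turned in sign, in the share with at least 500 ATAC counts (exact p = 0.171). The clumping index was 4.04 for GC, 3.82 for astrocyte, 8.55 for oligodendrocyte, 1.33 for ribosomal protein, 1.46 for mitochondrial and 2.65 for long neuronal genes. The promoter share passed the threshold between genotypes at 51 to 200 UMIs (−9.92 points), in a range scaled to each library (−7.50) and over shared regions (−8.67). Between barcode sets it did so at 21 to 100 UMIs (−4.48), under 100 and under 20 ATAC counts (−10.5 and −11.2) and in the ranked barcodes (−8.54).

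With 1 mouse left out, genotype differences ranged from 6.40 to 9.27 points for mitochondrial share, −7 to −5.25 for the median ATAC count and −4.30 to −2.22 points for the share with at least 500. The exact p reached 0.0571 for the median without WT M1 and for that share without any 1 of the V321L mice. Genotype calls ranged from 3540 to 4292 higher and 3207 to 3877 lower, and interaction calls from 1799 to 2750 higher and 625 to 1227 lower.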
